A study of Mus musculus with 60 samples.

Results

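The D7F line is a mouse cell line that carries mutant Pabpn1 at a level labelled low, and its gene expression is described here against IM2, the untransfected line. Arrays were taken by their titles: those starting with D7F against those starting with IM2, on both array parts. They make up 24 of the 60 arrays of the study, 12 of each line. The study measured total RNA of 5 lines on 2-colour arrays, with mutant Pabpn1 in D7F (low) and D7E (high), wild-type Pabpn1 in WTD (low) and WTA (high), and no transfected gene in IM2. Each line was grown as 3 cultures, and every culture was set against 1 common IM2 reference RNA in both dye orientations on each of the 2 parts, which carry different probes. The labels name oculopharyngeal muscular dystrophy (OPMD), but not the tissue the lines come from, the mutation, the promoter that drives the transfected gene or the culture conditions. Each genotype and level is 1 line, so no comparison replicates the transfection itself, and p-values measure only the spread between cultures of a line. Every value is a ratio to IM2 RNA, so the presence of muscle markers in IM2 itself cannot be read from these data.

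PABPN1 is the nuclear poly(A)-binding protein. It coats the growing poly(A) tail of pre-messenger RNA, stimulates poly(A) polymerase and takes part in the choice of polyadenylation sites and in nuclear RNA decay. OPMD is a late-onset muscle disease, with drooping eyelids, difficulty in swallowing and weakness of the limbs, and the human disease comes from a lengthened run of alanines in PABPN1, which forms aggregates in muscle nuclei.

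All sizes are log2 ratios of culture over reference, or differences of such ratios between lines. They rest on reading the deposited values as log10 ratios, so sizes and folds hold only if that base is right, while signs and calls do not depend on it. Values at the deposited limits of -2 and 2 were dropped, and the 2 dye orientations of a culture were averaged. D7F arrays had 83.4% to 99.6% of their rows filled, and 1.30% to 18.2% of the filled values lay at a limit. IM2 arrays had 46.0% to 99.1% filled and 2.45% to 33.2% at a limit. By a rule of over 20% of values at a limit or under 70% of rows filled, 0 of 12 D7F arrays and 5 of 12 IM2 arrays were poor, among 9 of 60 in all. The 2 dye orientations of a culture correlated over probes with r = 0.03662 to 0.1813 in D7F, but with -0.3492 to 0.01193 in IM2. Cultures of D7F correlated with each other at 0.4444 to 0.5625, and those of IM2, whose ratios compare the line with its own RNA, at 0.0234 to 0.07511. With the limit values kept, the Cy3 arrays of D7F culture 1 and IM2 cultures 2 and 3 on part II correlated at -0.4147 and -0.4131. The labels state the dyes, so the direction was kept.

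Pabpn1 was higher in D7F than in IM2, and lower than in the other transfected lines. Its log2 ratios, by culture 1, 2 and 3 as in all values below, were 1.04, 0.83 and 0.87 in D7F, 1.71, 1.45 and 1.67 in D7E, 1.47, 1.47 and 1.35 in WTD, 2.47, 2.22 and 1.89 in WTA and -0.24, -0.13 and -0.16 in IM2. All 3 D7F cultures lay above all IM2 cultures and below all 9 cultures of the other transfected lines. The difference from IM2 was 1.09 (SE 0.14, adjusted p = 0.00122), a 2.13-fold higher level (limma with Benjamini-Hochberg adjustment, as for every adjusted p below). Against the mean of the other transfected lines the difference was -0.83 (SE 0.11, adjusted p = 0.0109), a call that ended without D7F culture 2 or 3 (adjusted p = 0.0611 to 0.106). That call also ended with arrays centred and scaled and with the Cy5 arrays alone (adjusted p up to 0.36). By single lines the difference was -1.28 (SE 0.14, adjusted p = 0.00182) against WTA, -0.52 (SE 0.14, adjusted p = 0.202) against WTD and -0.69 (SE 0.14, adjusted p = 0.0971) against D7E. Of these, the difference from WTA passed the threshold. The labels do not say whether this probe, on part I, reads the line's own Pabpn1 transcript, the introduced one or both.

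**Figure D1:**
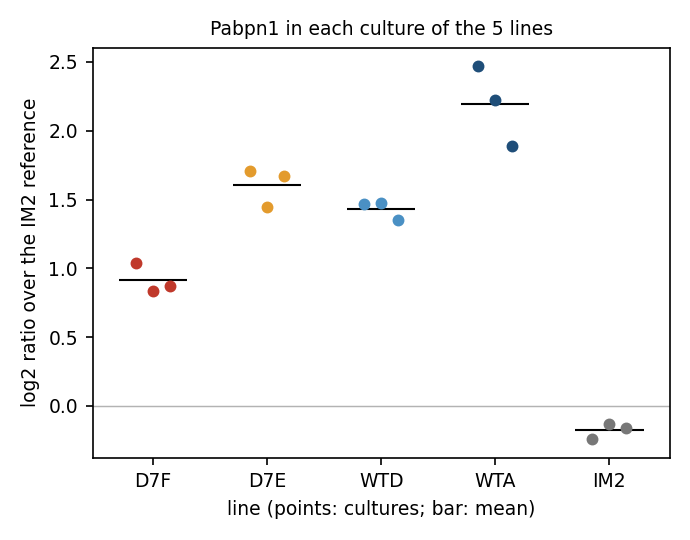
Log2 ratio of Pabpn1 over the common IM2 reference (vertical axis) in the 5 lines, D7F at the left and IM2 at the right. Points are the 3 cultures of a line, and the bar is their mean. The D7F cultures lie between 0.83 and 1.04, below every culture of D7E, WTD and WTA and above every IM2 culture.

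Against IM2, 438 of 9708 probes passed an adjusted p of 0.05 in D7F (4.51%), 155 higher (1.60%) and 283 lower (2.92%). They stand for 398 of 8109 genes (4.91%), of which 141 rose (1.74%) and 257 fell (3.17%), while the median difference over all genes was 0.044. A difference above 0 was found for 54.8% of all genes. These shares are the background for the counts of every gene list below. A gene was counted as called when at least 1 of its probes was. Lists share members, so their counts are not separate results. For example, the fallen genes Ero1a, Loxl2, Plod2, Vldlr, Hmox1 and Ccng2 are counted in the hypoxia list and in another list. Calr is counted among both the ER and the class I genes. Of the 438 probes, 388 had a value in all cultures and no overlap between D7F and IM2, a separation that 32.1% of all fully measured probes showed. Lack of overlap, where given for called genes below, therefore adds little to the call itself. The count of 438 fell to 211 without the poor arrays. That setting left out all 9 poor arrays, 5 of IM2 and the others of WTA and WTD, lines that enter the shared spread. It kept cultures left with 1 orientation and tested 11724 probes. Which of these changes lowered the count was not tested. The count was 217 without D7F culture 2, 235 without IM2 culture 1, 291 without D7F culture 3 and 655 without IM2 culture 2. These counts do not say how much the D7F line and the state of the IM2 arrays each contribute, which was not tested.

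Among probes measured in all 6 cultures of D7F and IM2, with no overlap between the lines, those with the largest rises included 2 small X-linked proteins of the brain-expressed family. Bex2 had ratios of 1.70, 1.94 and 1.28 in D7F, against -0.30, -0.11 and -0.10 in IM2, a difference of 1.81 (SE 0.22, adjusted p = 0.000843), or 3.5-fold. Bex1 had 1.16, 1.54 and 1.26 in D7F, against -0.25, 0.06 and -0.10 in IM2, a difference of 1.42 (SE 0.18, adjusted p = 0.00111). The D7F and IM2 cultures were far apart for both, and both calls held with any of the 6 cultures left out. Tmod4, a tropomodulin that caps the pointed ends of actin filaments in skeletal muscle sarcomeres, had 1.23, 1.58 and 1.39 in D7F, against -0.27, 0.14 and 0.01 in IM2, a difference of 1.43 (SE 0.15, adjusted p = 0.000602). Itgb1bp2 (melusin), a muscle protein that binds the integrin beta 1 tail, had 0.95, 1.30 and 1.06 in D7F, against -0.24, 0.09 and -0.0038 in IM2, a difference of 1.15 (SE 0.20, adjusted p = 0.00578). Neither call depended on any 1 culture, while the lack of overlap was a condition of the choice.

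Rb1, the retinoblastoma protein that holds cells out of the cycle, was higher in every D7F culture, with 0.87, 1.30 and 1.33 in D7F, against -0.46, 0.23 and -0.51 in IM2. Its difference was 1.42 (SE 0.28, adjusted p = 0.0123), and the call ended without D7F culture 2 (adjusted p = 0.0524). Bin3, a membrane-binding adaptor of the BAR family, had 1.04, 1.02 and 0.90 in D7F, against 0.06, -0.18 and -0.72 in IM2, a difference of 1.27 (SE 0.21, adjusted p = 0.00519). Ptges2, a prostaglandin E synthase, differed by 1.15 (SE 0.20, adjusted p = 0.00553), with ratios of 0.88, 0.81 and 1.28 in D7F, against 0.04, -0.53 and 0.02 in IM2. For both, the lowest D7F culture was above the highest IM2 culture, as the choice of these genes required. Gm16440 and 5031425E22Rik, to which no role is given here, rose by 1.28 and 1.18 on the log2 scale. The rises of Sohlh2, a helix-loop-helix factor of germ cells, and of Kbtbd7, an adaptor of a ubiquitin ligase, were 1.52 (SE 0.34, adjusted p = 0.0227) and 1.13 (SE 0.23, adjusted p = 0.0148). Their calls ended without D7F culture 2 or 3 or IM2 culture 1 (adjusted p = 0.0673 to 0.0814) for Sohlh2 and without D7F culture 2 or 3 (adjusted p = 0.0545 to 0.056) for Kbtbd7. Snrpb, a core protein of the spliceosomal snRNPs, had 0.57, 0.34 and 0.33 in D7F, against -2.63, -0.09 and -1.40 in IM2. Its IM2 cultures were far from each other. The call of its difference of 1.78 (SE 0.44, adjusted p = 0.0409) ended without D7F culture 1, 2 or 3 or IM2 culture 1 or 3 (adjusted p = 0.0638 to 0.106), and the difference was -0.96 with the IM2 arrays turned in sign.

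Among probes measured in all 6 cultures, the largest fall of a named gene was that of Arrdc4, an arrestin-domain protein that restrains glucose uptake. It had -3.01, -2.44 and -2.48 in D7F, against 0.08, -0.20 and 0.20 in IM2, a difference of -2.67 (SE 0.24, adjusted p = 0.000127), so that D7F had 0.157 times the IM2 level. Ndrg1, a stress-responsive gene that hypoxia and cell differentiation induce, had -2.34, -2.45 and -2.69 in D7F, against 0.35, -0.29 and -0.02 in IM2, a difference of -2.51 (SE 0.21, adjusted p = 0.000127). In both genes the D7F cultures lay more than 2 log2 units below the IM2 cultures. The other probe of Ndrg1 differed by -1.40 and did not pass (adjusted p = 0.0664). Adm, the precursor of the vasodilator peptide adrenomedullin, had -2.01, -2.33 and -2.10 in D7F, against 0.15, -0.29 and -0.22 in IM2, a difference of -2.03 (SE 0.26, adjusted p = 0.00118). Fabp5, a fatty acid-binding protein, had -1.59, -2.44 and -2.13 in D7F, against 0.09, -0.37 and 0.06 in IM2, a difference of -1.98 (SE 0.32, adjusted p = 0.00578). Gstk1, a mitochondrial and peroxisomal glutathione transferase, had -1.45, -2.88 and -1.36 in D7F, against -0.06, 0.01 and 0.28 in IM2, a difference of -1.98 (SE 0.34, adjusted p = 0.00553). The lack of overlap between D7F and IM2 in these genes was a condition of their choice.

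The RIKEN transcript 3830403N18Rik differed by -2.53 (SE 0.38, adjusted p = 0.00226), with -2.58, -2.88 and -1.64 in D7F, against 0.08, 0.33 and 0.09 in IM2. Tcstv1, a gene of the early mouse embryo, differed by -1.85 (SE 0.31, adjusted p = 0.00584), and Syce2, a protein of the meiotic synaptonemal complex, by -1.78 (SE 0.33, adjusted p = 0.00698). Ero1a, Cdt1, Mcm3 and Ube2c complete the 12 largest falls and are described with their groups. None of these 12 calls ended when any 1 of the 6 cultures was left out. Probes that lacked a value in a culture reached larger sizes, among them, named after their values were seen, Mgarp (-3.19) and Fxyd6 (-2.82), which were lower, and Ctf1 (3.77) and Slc38a4 (2.73), which were higher.

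**Figure D2:**
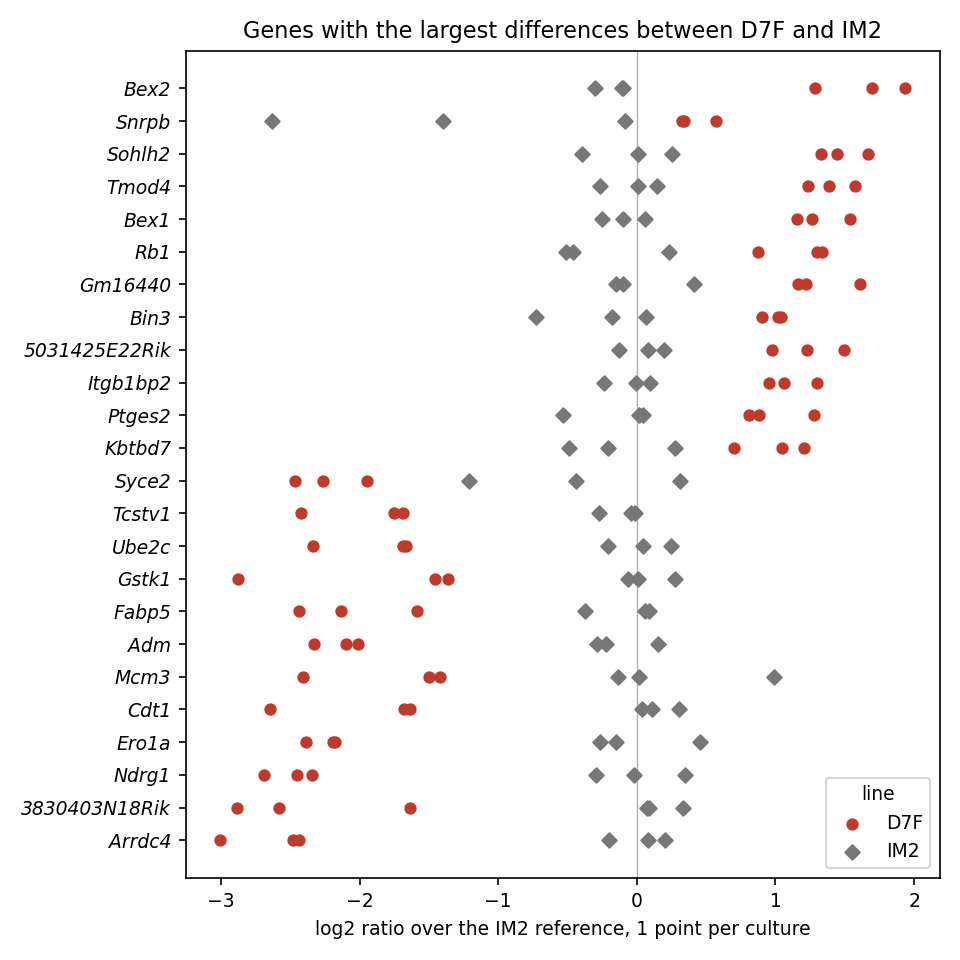
Log2 ratios over the IM2 reference (horizontal axis) of the 12 genes with the largest rise and the 12 with the largest fall in D7F against IM2 among fully measured probes (vertical axis), each point a culture, D7F and IM2 in separate colours. D7F and IM2 cultures are apart for all 24 genes, as the choice required, and the IM2 cultures of Snrpb spread from -2.63 to -0.09.

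Many genes that low oxygen induces through the hypoxia-inducible factors were lower in D7F. Of 31 measured genes of this list, 14 fell and 1 rose, and the median difference was -0.62, against 0.044 over all genes and 3.17% of all genes called lower. The fallen genes were Ndrg1, Ero1a, Bnip3, Adm, Fam162a, Loxl2, Hmox1, Vldlr, Mif, Plod2, Ddit4, Angptl4, Ccng2 and Mxi1, by -2.51 to -0.54. None overlapped with IM2, a separation that 32.1% of all fully measured probes showed. Without the poor arrays 10 fell and 1 rose, and with the IM2 arrays turned in sign 15 fell and 1 rose. Ero1a, the oxidase that recharges protein disulphide isomerase, had -2.18, -2.38 and -2.19 in D7F, against 0.46, -0.26 and -0.15 in IM2, a difference of -2.27 (SE 0.22, adjusted p = 0.000411). Bnip3, a mitochondrial protein of mitophagy and cell death, had -1.43, -1.45 and -1.66 in D7F, against 0.43, -0.16 and 0.05 in IM2, a difference of -1.62 (SE 0.20, adjusted p = 0.00106). In both genes every D7F culture was well below every IM2 culture. Ddit4, an inhibitor of mTORC1 signalling, had -1.20, -1.18 and -1.45 in D7F, against 0.23, -0.27 and -0.47 in IM2, a difference of -1.11 (SE 0.22, adjusted p = 0.0118). Tfrc, the transferrin receptor, was the rising member, and its probes disagreed: 1 rose by 0.85 (adjusted p = 0.0257) and the other, on part I, differed by -0.46 (adjusted p = 0.142). The Tfrc call ended without D7F culture 1, 2 or 3 or IM2 culture 1 or 3 (adjusted p = 0.0533 to 0.0953). Of 16 enzymes of glycolysis, many of which are also targets of these factors, 2 fell, Pgam1 by 1.05 and Pfkl by 0.57, and the median was -0.07. The call of Pfkl ended without D7F culture 1, 2 or 3 or IM2 culture 1 or 3 (adjusted p = 0.0556 to 0.118).

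The hypoxia-inducible factors bind the core ACGTG. It was sought on both strands in the 250 bases before the start of each gene in the RefSeq table of build GRCm38.p6. It occurred in 4 of the 9 fallen hypoxia genes with an entry there (Bnip3, Ddit4, Ero1a and Fam162a) and in 16.6% of all 27025 promoters. The promoters of 3 of them are printed because the falls of these genes are among those described, 5′ to 3′ along the gene's own strand, with the core in capitals as ACGTG or, on the other strand, CACGT.
Ero1a promoter (chr14:45318573-45318822, strand -): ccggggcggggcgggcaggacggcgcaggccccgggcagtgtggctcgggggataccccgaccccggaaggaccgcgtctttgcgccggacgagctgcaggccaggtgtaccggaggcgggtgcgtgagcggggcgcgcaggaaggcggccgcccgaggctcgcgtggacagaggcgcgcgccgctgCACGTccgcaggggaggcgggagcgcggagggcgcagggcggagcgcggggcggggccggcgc
Bnip3 promoter (chr7:138909507-138909756, strand -): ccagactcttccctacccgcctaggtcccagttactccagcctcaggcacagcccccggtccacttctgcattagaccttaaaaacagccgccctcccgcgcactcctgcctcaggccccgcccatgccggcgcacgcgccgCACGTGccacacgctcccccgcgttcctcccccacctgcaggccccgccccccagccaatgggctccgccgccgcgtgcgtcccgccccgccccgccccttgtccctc
Ddit4 promoter (chr10:59951771-59952020, strand -): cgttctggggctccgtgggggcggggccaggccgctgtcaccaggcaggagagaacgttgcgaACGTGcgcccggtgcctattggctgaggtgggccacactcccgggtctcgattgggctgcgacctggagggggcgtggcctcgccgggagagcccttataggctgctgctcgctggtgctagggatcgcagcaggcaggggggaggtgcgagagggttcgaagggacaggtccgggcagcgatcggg
Bnip3 holds 2 matches, which overlap as CACGTG, 1 on each strand, and the other 2 promoters hold 1 each. A match is a description of the letters, not a site or a cause.

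Falls were also found among genes of protein folding in the endoplasmic reticulum (ER). This list holds the chaperones, disulphide isomerases and signalling proteins of the unfolded protein response, by which cells adjust folding capacity to load. Of 39 measured members 9 fell and none rose, and the median was -0.34. A difference above 0 was found in 4 of the 39, against 54.8% of all genes. The fallen members were Ero1a, Dnajb9, Serp1, P4hb, Hspa5, Creld2, Calr, Hsp90b1 and Derl1. Hspa5, the main chaperone of the ER lumen (BiP), had -1.58, -1.42 and -0.82 in D7F, against 0.34, 0.09 and -0.22 in IM2, a difference of -1.34 (SE 0.26, adjusted p = 0.00989), while its other probe differed by -0.19 (adjusted p = 0.562). Dnajb9, a co-chaperone of Hspa5, had -0.90, -0.88 and -0.85 in D7F, against 0.13, -0.19 and -0.14 in IM2, a difference of -0.81 (SE 0.11, adjusted p = 0.00211). P4hb, a protein disulphide isomerase, had -1.28, -1.21 and -1.21 in D7F, against 0.26, -0.14 and -0.10 in IM2, a difference of -1.24 (SE 0.21, adjusted p = 0.00618). The groups did not overlap for any of the 3. Calr, the calcium-binding chaperone calreticulin, had -1.09, -1.27 and -0.79 in D7F, against 0.34, -0.26 and -0.23 in IM2, a difference of -1.0 (SE 0.23, adjusted p = 0.032), a call that ended without D7F culture 1 or 2 or IM2 culture 1 (adjusted p = 0.0815 to 0.113). The count was 5 without the poor arrays, and 5 again without D7F culture 1, without D7F culture 2 or without IM2 culture 1.

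The ER stress element, the letters CCAAT, then 9 bases of any kind, then CCACG, on either strand, was found in 4 of the 8 fallen ER genes with a promoter entry (Hspa5, Calr, Creld2 and Hsp90b1), and in 0.122% of all promoters. The motif holds the CCAAT box, which was also counted alone. The promoters of Hspa5 and Calr are shown with the element in capitals, since its letters are rare among all promoters.
Hspa5 promoter (chr2:34771840-34772089, strand +): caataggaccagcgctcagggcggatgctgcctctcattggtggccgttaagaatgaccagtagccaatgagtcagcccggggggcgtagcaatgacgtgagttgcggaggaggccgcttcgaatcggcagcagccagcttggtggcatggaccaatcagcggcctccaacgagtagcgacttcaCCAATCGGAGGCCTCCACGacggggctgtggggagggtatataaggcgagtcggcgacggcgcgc
Calr promoter (chr8:84846932-84847181, strand -): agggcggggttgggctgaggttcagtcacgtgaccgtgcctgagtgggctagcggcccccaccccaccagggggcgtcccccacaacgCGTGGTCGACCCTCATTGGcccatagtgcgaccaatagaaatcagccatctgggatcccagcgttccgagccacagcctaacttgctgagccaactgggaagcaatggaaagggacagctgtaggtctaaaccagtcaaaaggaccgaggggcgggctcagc

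Of the integrated stress response, the translation-coupled programme of the factor ATF4, 6 of 35 genes fell and none rose (median -0.16). They were Ddit3, Trib3, Cebpg, Vldlr, Ppp1r15a and Cebpb. Ddit3, the transcription factor CHOP, had -1.79, -2.02 and -1.76 in D7F, against 0.20, -0.31 and -0.20 in IM2, a difference of -1.75 (SE 0.15, adjusted p = 0.000127). Trib3, a pseudokinase induced by it, had -1.28, -1.30 and -1.48 in D7F, against 0.10, -0.29 and -0.33 in IM2, a difference of -1.18 (SE 0.19, adjusted p = 0.0036). Both calls held with any 1 culture left out. Among the redox genes 6 of 43 fell and none rose: Arrdc4, Prdx4, Mt1, Hmox1, Gstk1 and Gpx3, while the list's median was -0.08. Hmox1, the haem oxygenase, had -0.80, -0.93 and -0.81 in D7F, against 0.29, -0.14 and 0.16 in IM2, a difference of -0.95 (SE 0.16, adjusted p = 0.00508). Mt1, a metal-binding metallothionein, had -1.43, -1.52 and -1.94 in D7F, against 0.12, -0.33 and -0.45 in IM2, a difference of -1.41 (SE 0.21, adjusted p = 0.00209). Prdx4, the peroxiredoxin of the ER, had -1.37, -1.56 and -1.68 in D7F, against 0.08, -0.17 and 0.01 in IM2, a difference of -1.51 (SE 0.20, adjusted p = 0.00144). D7F and IM2 cultures were apart for each of these 3 redox genes.

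Genes of the cell cycle were among those that fell in D7F. Of 43 genes of DNA replication and nucleotide supply, 10 fell and none rose (median -0.25, but -0.62 with the IM2 arrays turned in sign and -0.41 with D7F ratios set against 0). They were Cdt1, Rrm2, Dut, Pola1, Mcm3, Gmnn, Pold1, Mcm4, Rfc4 and Rfc5, by -2.14 to -0.81. None overlapped between the lines, as held for 32.1% of all fully measured probes. Cdt1, which licenses replication origins, had -2.65, -1.63 and -1.68 in D7F, against 0.30, 0.04 and 0.11 in IM2, a difference of -2.14 (SE 0.27, adjusted p = 0.000987). Mcm3, a subunit of the replicative helicase, had -1.50, -2.41 and -1.42 in D7F, against 0.99, 0.01 and -0.13 in IM2, a difference of -2.07 (SE 0.33, adjusted p = 0.00684). Rrm2, the regulated subunit of ribonucleotide reductase, had -0.88, -1.11 and -0.86 in D7F, against 0.41, -0.09 and -0.03 in IM2, a difference of -1.05 (SE 0.16, adjusted p = 0.00305). Every D7F culture was below every IM2 culture in these 3 genes. The count was 6 without D7F culture 2 or without IM2 culture 1, and 7 without the poor arrays.

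Of 26 genes of mitosis and chromosome segregation, 9 fell and none rose, and 4 genes were above 0, against 54.8% of all genes. The median was -0.49 (-0.77 with the IM2 arrays turned in sign). The fallen genes were Ube2c, Cks2, Cks1b, Cenpa, Anln, Ncapg, Ccnb2, Cdk1 and Hmmr. Ube2c, the ubiquitin-conjugating enzyme of the anaphase-promoting complex, had -2.34, -1.68 and -1.67 in D7F, against 0.25, 0.04 and -0.21 in IM2, a difference of -1.92 (SE 0.25, adjusted p = 0.00106). Cks2, a small subunit bound to cyclin-dependent kinases, had -1.41, -1.38 and -1.46 in D7F, against 0.29, -0.36 and -0.26 in IM2, a difference of -1.31 (SE 0.20, adjusted p = 0.00264). Cenpa, the histone variant that marks centromeres, had -1.16, -1.87 and -1.07 in D7F, against 0.25, -0.17 and 0.19 in IM2, a difference of -1.46 (SE 0.24, adjusted p = 0.00553). All of these D7F values were under the IM2 values. In the 250 bases before their starts, 8 of the 9 fallen mitosis genes held a CCAAT box, against 34.5% of all promoters, and 5 held the cell cycle homology region TTTGAA, against 16.3%. The count of fallen mitosis genes was 5 without D7F culture 2 or without IM2 culture 1, and 6 without the poor arrays.

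Among 26 genes of cell cycle exit and its inhibitors, 2 rose (Rb1 and Cdkn2c) and 3 fell (Gadd45b, Btg3 and Ccng2). Cdkn2c, the kinase inhibitor p18, had 0.46, 0.82 and 0.67 in D7F, against 0.10, 0.04 and 0.04 in IM2, a difference of 0.59 (SE 0.12, adjusted p = 0.0151), a call that ended without D7F culture 2 (adjusted p = 0.0681). Gadd45b, a stress-induced signalling protein, had -0.93, -1.01 and -0.93 in D7F, against 0.42, -0.40 and -0.11 in IM2, a difference of -0.93 (SE 0.18, adjusted p = 0.0118). Btg3 and Ccng2, which act against proliferation, fell by 0.59 and 0.87. Their calls ended without D7F culture 1 or 2 or IM2 culture 1 (adjusted p = 0.0527 to 0.074) for Btg3 and without D7F culture 1 or 2 or IM2 culture 1 (adjusted p = 0.0502 to 0.0682) for Ccng2. The list's median was -0.11, and its count of 5 was 1 without D7F culture 2 and 3 without D7F culture 1 or IM2 culture 1.

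Falls were found among genes that interferons induce and among genes of class I antigen presentation, which interferons raise in most cells. Of 38 interferon genes 7 fell and none rose (median -0.19): Isg15, Ifitm3, Ifi27, Trim25, Ifitm1, Samhd1 and Ifitm2. Isg15, a ubiquitin-like protein, had -1.06, -1.48 and -1.38 in D7F, against 0.05, -0.11 and 0.19 in IM2, a difference of -1.35 (SE 0.14, adjusted p = 0.000602). Ifitm3, a membrane protein that blocks virus entry, had -1.01, -1.17 and -1.49 in D7F, against -0.15, -0.08 and 0.01 in IM2, a difference of -1.15 (SE 0.15, adjusted p = 0.00106). For both, D7F and IM2 did not overlap and no culture decided the call. The count of 7 was 3 without D7F culture 2, 2 without D7F culture 3 or IM2 culture 3, and 3 without the poor arrays.

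Of 14 class I genes 6 fell and none rose, with a median of -0.81, or -0.49 with the IM2 arrays turned in sign. They were H2-Q7, Psmb8, H2-D1, H2-Q10, Calr and Tap2. H2-D1, a classical class I heavy chain, had -0.81, -0.91 and -0.83 in D7F, against 0.31, 0.09 and 0.17 in IM2, a difference of -1.04 (SE 0.16, adjusted p = 0.00283). H2-Q7, a nonclassical class I chain, had -1.14, -1.23 and -1.14 in D7F, against 0.26, -0.29 and -0.01 in IM2, a difference of -1.16 (SE 0.15, adjusted p = 0.00106). Class I genes are near-identical copies of each other, so their probes may share signal. Psmb8, a catalytic subunit of the immunoproteasome, had -1.12, -1.34 and -1.28 in D7F, against 0.34, -0.10 and -0.11 in IM2, a difference of -1.29 (SE 0.18, adjusted p = 0.00233), and its other probe differed by -0.46 (adjusted p = 0.112). The count of 6 was 3 without D7F culture 1 or IM2 culture 1, and 4 without the poor arrays.

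The interferon-stimulated response element, sought as 2 copies of GAAA with 2 bases of any kind between them, on both strands, occurred in 2 of 6 fallen interferon genes with a promoter entry (Isg15 and Ifitm2), in 0 of 5 fallen class I genes and in 3.04% of all promoters. The Isg15 promoter is shown because it holds 3 overlapping matches, in capitals.
Isg15 promoter (chr4:156200819-156201068, strand -): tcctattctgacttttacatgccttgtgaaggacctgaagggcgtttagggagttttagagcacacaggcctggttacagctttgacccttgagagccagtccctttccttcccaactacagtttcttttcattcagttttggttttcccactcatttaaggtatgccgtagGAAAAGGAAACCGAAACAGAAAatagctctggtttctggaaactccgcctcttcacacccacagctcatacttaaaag

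Against IM2 the extracellular matrix was another group with falls alone, and its list medians were below 0 in the other transfected lines too. Of 37 collagens and collagen-processing genes 12 fell and none rose (median -0.54): Col11a1, Lox, Col3a1, Loxl2, Col18a1, Pcolce2, Plod2, Pcolce, Col12a1, Col1a1, Col1a2 and Loxl3. Col11a1, a fibril-forming collagen of cartilage and other tissues, had -1.63, -1.88 and -1.72 in D7F, against -0.21, 0.07 and 0.02 in IM2, a difference of -1.71 (SE 0.19, adjusted p = 0.000843). Lox, the enzyme that cross-links collagen, had -0.99, -1.49 and -1.31 in D7F, against 0.11, -0.07 and -0.05 in IM2, a difference of -1.26 (SE 0.16, adjusted p = 0.00106). Col3a1, a fibril collagen of soft tissue, had -0.93, -1.69 and -1.49 in D7F, against 0.54, -0.36 and 0.26 in IM2, a difference of -1.52 (SE 0.22, adjusted p = 0.00289). The D7F cultures lay below all IM2 cultures in the 3 genes, as in the other 9, beside 32.1% of fully measured probes without overlap. The count of 12 was 7 without IM2 culture 3 and 8 without the poor arrays.

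Of 45 other matrix proteins, proteases and inhibitors 5 fell and none rose (median -0.29): Lama4, Tfpi2, Timp1, Fbln1 and Has2. Lama4, a laminin chain of basement membranes, had -1.35, -1.39 and -1.20 in D7F, against -0.05, 0.11 and 0.16 in IM2, a difference of -1.39 (SE 0.19, adjusted p = 0.002). Timp1, an inhibitor of matrix metalloproteases, fell by 0.71, a call that ended without D7F culture 2 or 3 or IM2 culture 1 or 3 (adjusted p = 0.0524 to 0.0719). This count was 2 without D7F culture 2 or IM2 culture 1, 3 without D7F culture 3 or IM2 culture 3, and 2 without the poor arrays. Of 16 fibroblast markers 4 fell (Col3a1, Fbln1, Col1a1 and Col1a2) with a median of -0.47, and 3 of these 4 are also counted among the collagens. This count was 1 without D7F culture 2 or IM2 culture 1. In bulk RNA, fewer cells of a type and less of a transcript per cell cannot be told apart, and the part of fibroblast markers in the matrix result was not tested.

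Genes of the insulin-like growth factor system showed 4 falls among 11 (median -0.49). Igfbp7, a secreted binding protein, had -0.87, -1.13 and -1.41 in D7F, against -0.19, -0.11 and 0.16 in IM2, a difference of -1.09 (SE 0.16, adjusted p = 0.00307). Irs2, an adaptor of the insulin receptor, differed by -1.15 (SE 0.25, adjusted p = 0.0334), with -0.86 and -0.68 in D7F, against 0.63 and 0.14 in IM2. Irs2 was measured in 2 cultures of each line, and for both genes every measured D7F culture was below IM2. Igfbp5, which muscle cells secrete as they differentiate, fell by 0.58, and Grb10, an adaptor that restrains insulin signalling, by 0.82. The calls ended without D7F culture 2 or 3 or IM2 culture 1 or 3 (adjusted p = 0.0576 to 0.0862) for Igfbp5 and without D7F culture 1 or 2 or IM2 culture 3 (adjusted p = 0.0562 to 0.0798) for Grb10. The count of 4 was 2 without D7F culture 1, 2 or 3, or without IM2 culture 1 or 3.

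Among muscle genes the calls were mostly rises. Of 46 sarcomere genes 9 rose and none fell, 38 of the 46 had a difference above 0, and the median was 0.43 (0.29 with the IM2 arrays turned in sign), beside 1.74% of all genes called higher and 54.8% of all genes above 0. The risen genes were Tmod4, Myoz1, Lmod2, Myot, Tmod1, Myoz2, Cmya5, Myom1 and Ldb3, most of them proteins of the Z-disc, the M-band or the thin filament ends. Myoz1, a Z-disc protein that binds calcineurin, had 1.01, 1.34 and 0.95 in D7F, against -0.07, 0.20 and 0.12 in IM2, a difference of 1.02 (SE 0.12, adjusted p = 0.00106). Lmod2, which promotes actin filament growth in sarcomeres, had 0.72, 0.88 and 0.95 in D7F, against -0.12, -0.05 and -0.01 in IM2, a difference of 0.91 (SE 0.15, adjusted p = 0.00421). Myot, the Z-disc protein myotilin, had 0.58, 0.66 and 0.90 in D7F, against -0.14, -0.09 and 0.16 in IM2, a difference of 0.74 (SE 0.13, adjusted p = 0.00618). D7F was above IM2 in every culture for the 3 genes. Acta1, the skeletal actin of the thin filament, differed by -0.14 (adjusted p = 0.584) and Tnnt3, fast troponin T, by 0.38 (adjusted p = 0.232), neither past the threshold and both chosen after their values were seen. The count of 9 was 15 without IM2 culture 2, 5 without the poor arrays and 10 with the IM2 arrays turned in sign. The E-box CAGCTG, a sequence that myogenic factors bind, was in 1 of 7 risen sarcomere genes with a promoter entry and in 12.8% of all promoters.

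Of 38 genes that serve calcium handling or energy metabolism in muscle, 5 rose and none fell (median 0.37): Ryr3, Slc2a4, Cd36, Fabp3 and Trdn. Ryr3, a calcium release channel of the sarcoplasmic reticulum, had 1.33, 0.90 and 0.94 in D7F, against -0.23, -0.05 and 0.30 in IM2, a difference of 1.05 (SE 0.17, adjusted p = 0.00462). Its other probe gave 1.18 (adjusted p = 0.38). Slc2a4, the insulin-regulated glucose transporter GLUT4, had 0.87, 0.78 and 0.61 in D7F, against -0.36, 0.05 and -0.08 in IM2, a difference of 0.89 (SE 0.15, adjusted p = 0.00673). Cd36, a fatty acid transporter, had 0.57, 0.94 and 0.88 in D7F, against -0.05, 0.05 and -0.01 in IM2, a difference of 0.80 (SE 0.14, adjusted p = 0.00724). The cultures of the lines were apart in each case. Fabp3, the fatty acid-binding protein of heart and muscle, rose by 0.68, a call that ended without D7F culture 1, 2 or 3 or IM2 culture 1 (adjusted p = 0.05003 to 0.092). The count of 5 was 3 without D7F culture 1 or 3, and 2 without the poor arrays.

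Among 51 myogenic regulators and fusion genes 3 rose (Myf6, Rb1 and Mef2c) and 2 fell (Igfbp5 and Id2), with a median of 0.24. Myf6, the myogenic factor MRF4, had 0.76, 0.87 and 0.66 in D7F, against -0.16, 0.10 and 0.01 in IM2, a difference of 0.78 (SE 0.12, adjusted p = 0.00421), and did not overlap with IM2. Mef2c, a partner factor of the myogenic regulators, rose by 0.62, a call that ended without D7F culture 1 or 2 or IM2 culture 1 or 3 (adjusted p = 0.0831 to 0.146). Id2, which blocks helix-loop-helix factors, fell by 1.22, a call that ended without D7F culture 2 or 3 or IM2 culture 1 (adjusted p = 0.0765 to 0.0884). The myogenic factors Myod1 and Myog, named here after their values were seen, differed by 0.26 (adjusted p = 0.203) and 0.35 (adjusted p = 0.478). The count of 5 was 1 without D7F culture 2, 2 without IM2 culture 1, and 3 without D7F culture 3 or IM2 culture 3. Of 29 genes of the acetylcholine receptor and the dystrophin complex, Capn3, a muscle protease, rose by 0.67, and none fell (3.4% called, against 4.91% of all genes). That call ended without D7F culture 2 or 3 or IM2 culture 1 or 3 (adjusted p = 0.0639 to 0.146), while the list had 5 calls without IM2 culture 2.

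**Figure D3:**
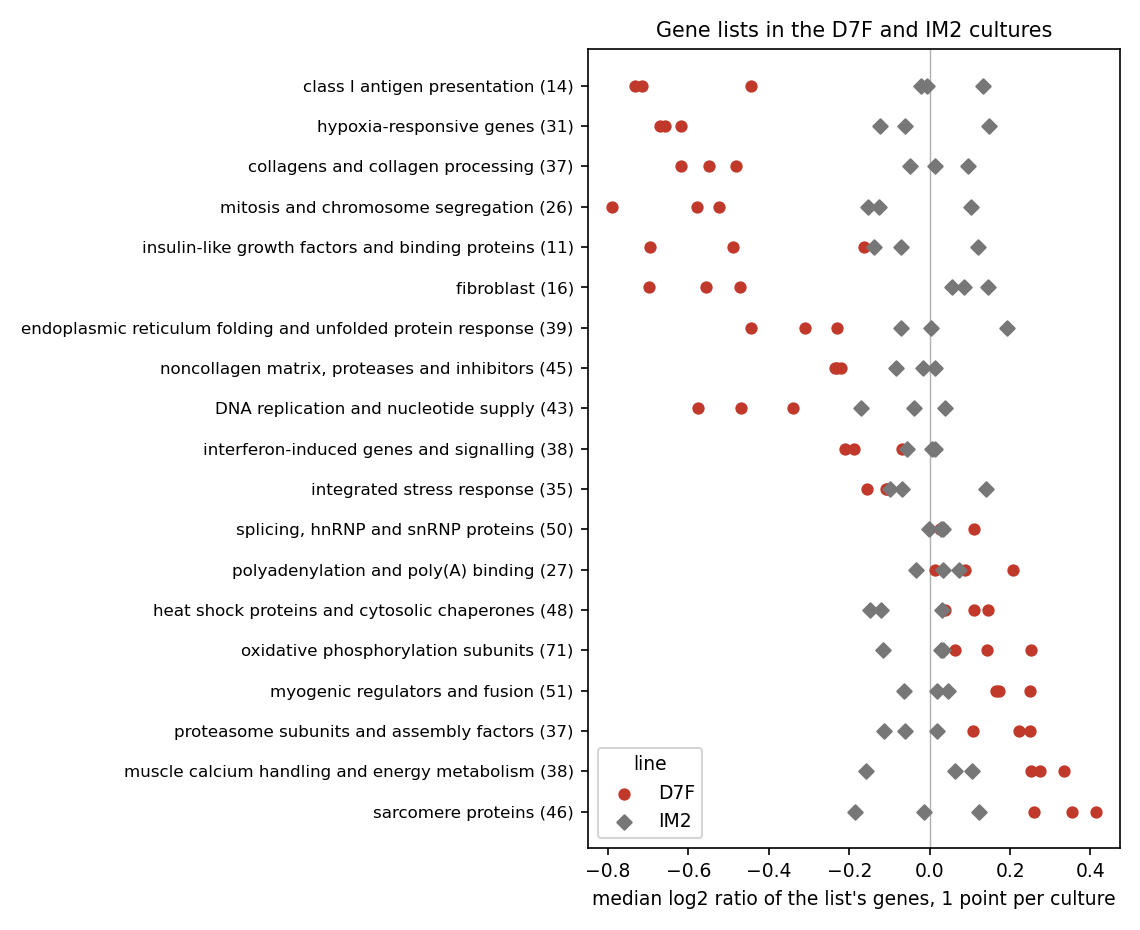
Median log2 ratio over the IM2 reference (horizontal axis) of the measured genes of 19 gene lists (vertical axis), each point a culture, D7F and IM2 in separate colours. The D7F points of the hypoxia list lie between -0.67 and -0.62 and those of the sarcomere list between 0.26 and 0.41, and the order of the lists differs between cultures.

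Of the genes of polyadenylation and poly(A) binding, the machinery in which PABPN1 itself works, 2 of 27 passed. Pabpn1 rose, and Pabpc1, the main cytoplasmic poly(A)-binding protein, had -0.71, -0.98 and -0.85 in D7F, against 0.13, -0.19 and -0.01 in IM2, a difference of -0.83 (SE 0.11, adjusted p = 0.0015) that held with any culture left out. The list's median was 0.11. Of 50 splicing genes Celf1 and Snrpb rose (4% called, against 4.91% of all genes), and the median of that list was 0.02. This count of 2 was 1 without D7F culture 1, D7F culture 2 or IM2 culture 1, and 0 by limma without IM2 culture 3 or without the poor arrays. With the IM2 arrays turned in sign none of the splicing genes rose and 2 fell, with a median of -0.04. Celf1, an RNA-binding regulator of muscle splicing, rose by 1.20 (adjusted p = 0.0148) with 1 probe, and its other probe differed by 0.34 (adjusted p = 0.475). None of 30 nuclear import and export genes was called by limma.

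Genes of cholesterol synthesis showed 3 rises and 1 fall among 19 (median 0.30, or 0.18 with the IM2 arrays turned in sign). Fdft1, squalene synthase, had 0.56, 0.77 and 0.69 in D7F, against -0.27, 0.07 and 0.01 in IM2, a difference of 0.74 (SE 0.11, adjusted p = 0.00332). Dhcr7, the last enzyme of the pathway, and Mvd, its mevalonate decarboxylase, rose by 0.77 and 0.48. Those calls ended without D7F culture 1 or 2 or IM2 culture 1 (adjusted p = 0.0754 to 0.0996) for Dhcr7 and without D7F culture 1, 2 or 3 or IM2 culture 1, 2 or 3 (adjusted p = 0.0557 to 0.128) for Mvd. Srebf2, the transcription factor that drives the pathway, fell by 0.60 with 1 probe, while the other differed by 0.25 (adjusted p = 0.857). The call ended without D7F culture 1, 2 or 3 or IM2 culture 1 or 2 (adjusted p = 0.05003 to 0.132), and the difference was 0.31 with the IM2 arrays turned in sign. The count of 4 was 1 without D7F culture 1, D7F culture 2 or IM2 culture 1, and 2 without D7F culture 3.

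In fatty acid metabolism 2 of 37 genes rose (Cd36 and Fabp3) and 3 fell (Fabp5, Angptl4 and Elovl5), a count of 5 that ranged from 2 without D7F culture 2, D7F culture 3 or IM2 culture 1 to 8 without IM2 culture 2, and was 3 without D7F culture 1. Proteasome subunits had a median of 0.27, or 0.15 with the IM2 arrays turned in sign, with 33 of 37 above 0, and 2 of them rose, Psmd10 by 0.60 (adjusted p = 0.00392) and Psmc5 by 0.72 (adjusted p = 0.0257). That count was 1 without D7F culture 2, D7F culture 3, IM2 culture 1 or IM2 culture 3, and 5 without IM2 culture 2. Heat shock proteins had 40 of 48 above 0, against 54.8% of all genes, but their median of 0.18 was 0.0042 with the IM2 arrays turned in sign. They had 1 call, Hspb2, a small muscle chaperone that rose by 0.63, and oxidative phosphorylation subunits had 60 of 71 above 0 with 1 call, Ndufa4 (0.57). The calls ended without D7F culture 2 or 3 or IM2 culture 1 (adjusted p = 0.0507 to 0.0886) for Hspb2 and without D7F culture 1, 2 or 3 or IM2 culture 1 (adjusted p = 0.0771 to 0.107) for Ndufa4, and without IM2 culture 2 the lists had 5 and 3 calls. Called were 13.5% of the fatty acid, 5.4% of the proteasome, 2.1% of the heat shock and 1.4% of the oxidative phosphorylation genes, against 4.91% of all genes. Of the chemokine and cytokine list Mif, Tnfrsf1a and Osmr fell among 33 (9.1%). Of the TGF beta, BMP and Wnt list Sfrp2 fell among 39 (2.6%), against 3.17% of all genes called lower. Sfrp2, measured in 2 D7F and 2 IM2 cultures, differed by -1.90 (adjusted p = 0.0148), or by -3.64 with the limit values kept. Without D7F culture 1 this list had 2 calls, and without D7F culture 2 or 3 or IM2 culture 1 or 3, where Sfrp2 had too few values to be tested, limma made 0.

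The remaining lists had few calls. They covered 3.2% of ribosomal, 4.2% of translation, 4.6% of cytoskeletal, 7.0% of apoptosis and 1.5% of ubiquitin genes, against 4.91% of all genes. Of 63 cytoplasmic ribosomal proteins Rpl28 and Rpl13a fell, and of 48 translation factors Eif4g3 rose and Eif4ebp1 fell. Of 65 cytoskeletal genes Actr1a and Tuba4a rose and Dstn fell, the difference of Actr1a being -0.53 with the IM2 arrays turned in sign. Of 43 apoptosis genes Pdcd4 and Aifm1 rose and Tnfrsf1a fell, and Ube2c was the fall among 67 ubiquitin enzymes. Counts in these lists changed by more than 1.5 times when 1 culture was left out, with 0 ribosomal calls without any 1 D7F culture or IM2 culture 1, and 5 apoptosis and 6 cytoskeletal calls without IM2 culture 2. None of 55 lysosome and autophagy genes and none of 35 immediate early genes were called by limma. Among markers of other cell types, Bex1 and Bex2 rose of 10 neural and Schwann cell markers and Slc2a4 and Cd36 of 12 adipocyte markers, while limma called none of 9 smooth muscle, 4 endothelial, 2 leukocyte and 3 bone and cartilage markers. The neural and adipocyte risers are thus also genes of other lists or of the largest rises, and the part of such cells in the result was not tested.

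To ask what is particular to D7F among transfected lines, it was set against the mean of D7E, WTD and WTA, a difference that does not include the IM2 values. The IM2 cultures still entered the filter on probes and the shared estimate of the spread. Of 9708 probes 27 passed (0.278%), 10 higher (0.103%) and 17 lower (0.175%), while 640 had an unadjusted p under 0.05. They stand for 24 named genes, and 3 probes have no single symbol. With the 4 transfected lines fitted alone, 24 probes passed. The count was 8 without D7F culture 1 or 2 and 11 without D7F culture 3, and it was 8 with the limit values kept. None of the 14 fallen hypoxia genes was called here by limma. The hypoxia list's median was 0.18, the mitosis list's -0.16 and the sarcomere list's 0.01, against 0.024 over all genes. For collagens it was 0.13, for the ER list 0.03, for interferon genes 0.03 and for class I genes 0.01. These last lists, and those of hypoxia, mitosis and DNA replication, had medians below 0 in every transfected culture. The sarcomere list had medians above 0 in each of them. At the level of lists, these falls and rises against IM2 were thus not particular to D7F. By culture, the hypoxia medians were -0.66, -0.67 and -0.62 in D7F and -1.16, -0.96 and -0.94 in D7E. In WTD they were -0.93, -0.80 and -0.92, and in WTA -0.75, -0.53 and -0.44. By culture, the collagen medians were -0.55, -0.48 and -0.62 in D7F and -0.92, -0.65 and -0.78 in D7E. They were -0.62, -0.74 and -0.67 in WTD and -0.94, -0.62 and -0.72 in WTA. Of the 27 probes, 14 were also called against IM2, 12 of them in the same direction.

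Lrrn1, a leucine-rich repeat membrane protein of neurons, was the lowest of the genes with all values and no overlap. It had -1.73, -1.87 and -1.76 in D7F, -0.31, -0.28 and -0.24 in D7E, 0.29, 0.65 and 0.68 in WTD, -0.84, -1.01 and -0.85 in WTA and -0.50, 0.23 and -0.06 in IM2. The D7F cultures were below all 12 other cultures, and the difference from the mean of the transfected lines was -1.58 (SE 0.14, adjusted p = 0.000611), a call that held under all 25 alternatives. The other probe of Lrrn1, on part II, did not pass, with a difference of -0.33 (adjusted p = 0.816). Ces2g, a carboxylesterase, had 0.92, 0.90 and 0.96 in D7F, -0.50, -0.74 and -0.54 in D7E, -1.60, -1.27 and -0.92 in WTD, 0.18, 0.49 and 0.04 in WTA and 0.02, 0.41 and 0.11 in IM2. D7F was above all 12 others, by 1.47 (SE 0.15, adjusted p = 0.000713) against the transfected lines. Msln, the surface protein mesothelin, had 0.36, 0.43 and 0.36 in D7F, -0.24, -0.09 and -0.02 in D7E, -0.67, -0.44 and -0.55 in WTD, -0.55, -0.71 and -0.48 in WTA and 0.06, -0.04 and 0.0008 in IM2. Its D7F cultures too were above every other culture, with a difference of 0.80 (SE 0.08, adjusted p = 0.00177), and neither this call nor that of Ces2g depended on any 1 culture. The Msln call held under every other alternative too. That of Ces2g ended with the Cy5 or Cy3 arrays alone and without the poor arrays (adjusted p up to 0.211).

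Other genes of this comparison are known from skeletal muscle. Sln, sarcolipin, a small inhibitor of the calcium pump of the sarcoplasmic reticulum, had -0.71, -0.69 and -0.72 in D7F, 0.23, -0.30 and -0.09 in D7E, 0.33, 0.60 and 0.44 in WTD, -0.03, 0.06 and -0.24 in WTA and -0.49, 0.14 and 0.18 in IM2. Its difference was -0.82 (SE 0.15, adjusted p = 0.0469), and the call ended without D7F culture 1, 2 or 3, D7E culture 1 or 3, WTD culture 1, 2 or 3 or WTA culture 1 (adjusted p = 0.0688 to 0.253). Nmrk2, a muscle nicotinamide riboside kinase, had -1.05, -1.12 and -1.22 in D7F, -0.15, -0.31 and 0.02 in D7E, 0.12, 0.54 and 0.03 in WTD, 0.03, -0.17 and -0.85 in WTA and -0.11, 0.37 and 0.04 in IM2, and differed by -1.04 (SE 0.18, adjusted p = 0.0245). Mss51, a protein found mainly in skeletal muscle, had 0.90, 0.90 and 0.97 in D7F, -0.04, 0.01 and 0.32 in D7E, -0.64, 0.05 and -0.23 in WTD, 0.31, 0.09 and -0.17 in WTA and -0.28, 0.13 and 0.12 in IM2, and differed by 0.96 (SE 0.16, adjusted p = 0.0202). D7F lay below all 12 other cultures for Sln and Nmrk2 and above them for Mss51. The calls ended without D7F culture 1, 2 or 3 (adjusted p = 0.112 to 0.17) for Nmrk2 and without D7F culture 1, 2 or 3 (adjusted p = 0.111 to 0.151) for Mss51. Tgfbi, an extracellular matrix protein induced by TGF beta, had 0.56, 0.68 and 0.29 in D7F, -0.48, -0.41 and -0.46 in D7E, -0.68, -1.03 and -0.63 in WTD, -0.87, -0.16 and -0.24 in WTA and -0.55, 0.10 and 0.04 in IM2. Its difference of 1.06 (SE 0.18, adjusted p = 0.0245) was lost without D7F culture 1, 2 or 3 or WTD culture 1 (adjusted p = 0.0505 to 0.201).

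Rbms1, an RNA-binding protein, had -0.82, -0.87 and -0.71 in D7F, 0.34, 0.26 and 0.11 in D7E, -0.32, -0.17 and -0.57 in WTD, -0.16, -0.31 and -0.14 in WTA and 0.24, -0.23 and -0.06 in IM2. D7F was below every other culture, with a difference of -0.69 (SE 0.11, adjusted p = 0.0245). Ywhab, a 14-3-3 protein that binds phosphorylated partners, differed by -0.53 (SE 0.08, adjusted p = 0.0168), with D7F at 0.18, 0.09 and 0.18, and Hebp2, a haem-binding protein, by 0.66 (SE 0.10, adjusted p = 0.0138), with D7F at -0.03, -0.11 and -0.26. The D7F cultures of Ywhab lay below and those of Hebp2 above the 9 other transfected cultures, and nearer to IM2, which had 0.05, -0.0028 and -0.15 for Ywhab and 0.06, -0.18 and 0.10 for Hebp2. The calls ended without D7F culture 1, 2 or 3 or WTD culture 1 (adjusted p = 0.0606 to 0.18) for Rbms1, without D7F culture 1, 2 or 3 (adjusted p = 0.067 to 0.155) for Ywhab and without D7F culture 1 or 2 (adjusted p = 0.111 to 0.146) for Hebp2. With Pabpn1, these are the 11 named genes, of those with all values, whose D7F cultures all lay apart from the 9 other transfected cultures, a separation that 1.73% of fully measured probes showed, while 0.615% were apart from all 12 others.

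Of the remaining 13 genes, 10 overlapped with at least 1 other transfected line and 3 (Sod3, Fxyd6 and Cox8c) lacked a value in a culture. Pvalb, the calcium buffer parvalbumin of fast muscle fibres, had 0.47, 0.69 and 0.57 in D7F, -0.45, -0.52 and -0.88 in D7E, -1.55, -1.60 and -1.92 in WTD, 0.56, 0.56 and 0.49 in WTA and -0.35, 0.20 and 0.18 in IM2. D7F was level with WTA and well above D7E and WTD, and the difference from the mean of the 3 lines was 1.17 (SE 0.14, adjusted p = 0.00355). Cdkn1c, the cell cycle inhibitor p57, had -0.17, -0.50 and -0.30 in D7F, 1.02, 1.11 and 1.05 in D7E, 1.49, 1.36 and 1.49 in WTD, -0.34, -0.38 and -0.18 in WTA and -0.55, -0.19 and 0.07 in IM2. Here D7F again overlapped with WTA, and with IM2, and lay below D7E and WTD, with a difference of -1.06 (SE 0.12, adjusted p = 0.00288). Scn10a, a sodium channel of sensory neurons, differed by -1.05 (SE 0.16, adjusted p = 0.0181) and Rad51b, a protein of homologous recombination, by 0.86 (SE 0.13, adjusted p = 0.0128). D7F overlapped with WTA for Scn10a (means -0.59 and -0.76) and with WTD for Rad51b (means 0.68 and 0.53). The calls ended without D7F culture 1, 2 or 3 (adjusted p = 0.0543 to 0.17) for Scn10a and without D7F culture 1 or 2 (adjusted p = 0.0939 to 0.146) for Rad51b.

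For 3 of these genes the WTD line stood furthest out. 3830403N18Rik had -2.58, -2.88 and -1.64 in D7F, -1.58, -1.69 and -0.95 in D7E, 2.08, 1.83 and 3.15 in WTD, -1.31, -1.07 and -0.39 in WTA and 0.08, 0.33 and 0.09 in IM2, a difference of -2.38 (SE 0.31, adjusted p = 0.0039). Xlr, an X-linked lymphocyte-regulated gene, differed by -1.24 (SE 0.22, adjusted p = 0.04), lost without D7F culture 1 or 3, D7E culture 1, 2 or 3, WTD culture 1, 2 or 3 or WTA culture 1 (adjusted p = 0.0553 to 0.289), while its other probe differed by -0.01 (adjusted p = 0.999). Its called probe overlapped with D7E (means -1.07 in D7F and -0.83 in D7E). Gpx7, a peroxidase of the ER, was higher by 1.10 (SE 0.19, adjusted p = 0.0223), with -0.44, -0.21 and -0.41 in D7F and -2.74, -3.92 and -3.47 in WTD. D7E had -0.17, -0.24 and -0.33, overlapping with D7F, and WTA had -0.93, -0.66 and -0.59. The Gpx7 call ended without D7F culture 1, 2 or 3 (adjusted p = 0.0952 to 0.177). Sod3, the extracellular superoxide dismutase, was higher by 1.55 (SE 0.21, adjusted p = 0.0109), lost without D7F culture 1 or 2 (adjusted p = 0.0809 to 0.0939), and its D7F cultures lay above all 8 measured cultures of the other transfected lines. Prr32, a proline-rich protein, differed by -0.79 (SE 0.12, adjusted p = 0.0128), and Vapb, a protein of ER membrane contacts, by -0.66 (SE 0.12, adjusted p = 0.04). D7F overlapped with WTA for Prr32 (means -1.61 and -1.81) and with WTD for Vapb (means 0.26 and 0.25). Their calls ended without D7F culture 1, 2 or 3 (adjusted p = 0.0608 to 0.146) for Prr32 and without D7F culture 1, 2 or 3, D7E culture 2, WTD culture 1 or 3 or WTA culture 1 (adjusted p = 0.0658 to 0.26) for Vapb. Rhoa, the small GTPase of stress fibres, differed by -0.49 (SE 0.09, adjusted p = 0.0477), lost without D7F culture 1, 2 or 3, D7E culture 1, 2 or 3, WTD culture 1, 2 or 3 or WTA culture 1 or 3 (adjusted p = 0.052 to 0.335). Its D7F cultures overlapped with WTD (means -0.22 and -0.08). Fxyd6, a regulator of the sodium pump, and Cox8c, a subunit of cytochrome oxidase, had values in 2 D7F cultures each and differed by -2.17 (SE 0.34, adjusted p = 0.0223) and -1.0 (SE 0.15, adjusted p = 0.0128). The measured D7F cultures of both lay below every measured culture of the other 4 lines. The D7F values of Fxyd6, -3.09 and -1.47, were far from each other. Its call ended in 8 of the 12 settings that left no culture out. Among them were limits kept, the transfected lines fitted alone, either dye alone and the poor arrays left out. With the limit values kept, the difference of Cox8c was 0.44.

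**Figure D4:**
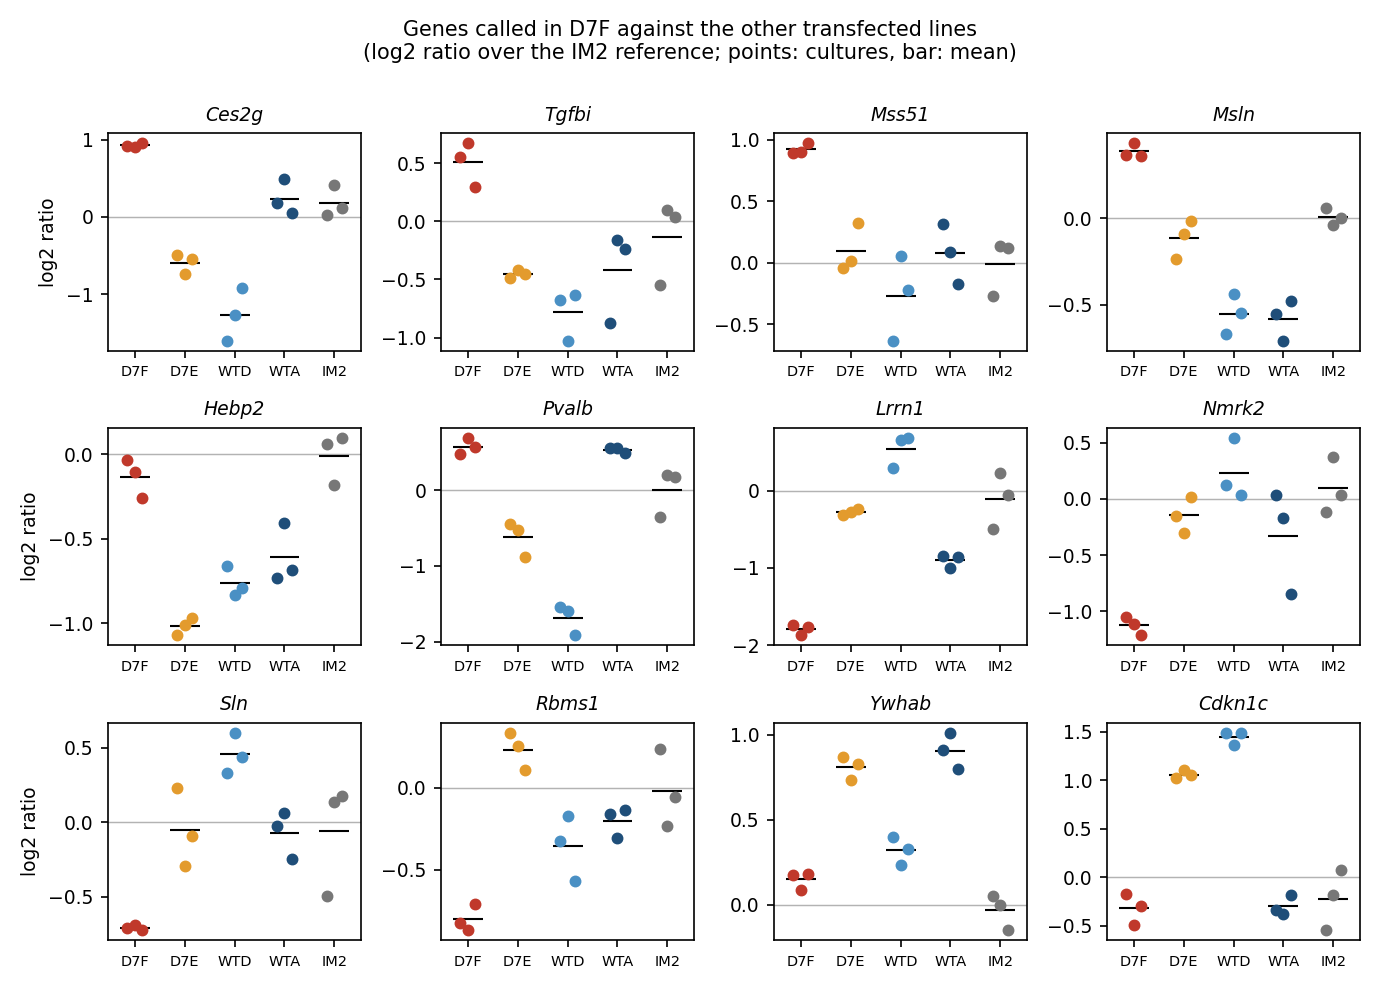
Log2 ratios over the IM2 reference (vertical axis) of 12 genes called in D7F against the mean of D7E, WTD and WTA, a panel for each gene and a point for each culture, with the lines in the order D7F, D7E, WTD, WTA and IM2. D7F is apart from all other lines for Ces2g, Lrrn1 and Msln, and overlaps with WTA for Pvalb and Cdkn1c.

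Against single lines, D7F differed in 44 probes from WTD, the other line labelled low (0.453%, 23 higher and 21 lower), in 22 from D7E, the other mutant line (0.227%, 10 higher and 12 lower), and in 28 from WTA (0.288%, 16 higher and 12 lower). These comparisons share the D7F arrays and are not independent of each other. With the arrays centred on their medians the split was 6 higher and 13 lower against D7E, and 16 and 22 against WTA, and with arrays centred and scaled it was 9 and 16 against WTA. Lrrn1 differed by -2.33 (SE 0.17, adjusted p = 2.43e-05) from WTD and by -1.51 (SE 0.17, adjusted p = 0.00171) from D7E, and Ces2g by 2.19 (SE 0.18, adjusted p = 2.48e-05) from WTD and by 1.52 (SE 0.18, adjusted p = 0.00171) from D7E. Against WTA, Msln differed by 0.96 (SE 0.10, adjusted p = 0.00182). Cox8c was the 1 probe called against each of the 3 lines, with -1.03 against D7E, -1.03 against WTD and -0.94 against WTA. It had values in 2 D7F cultures. Its call against the mean of the 3 lines ended in 5 of the 12 settings that left no culture out. With the limit values kept, the sign of that difference changed. Among the sarcomere genes that rose against IM2, Tmod4 was higher in D7F than in WTD by 1.47 (SE 0.15, adjusted p = 0.00055), Myoz1 by 0.75 (SE 0.12, adjusted p = 0.02) and Cmya5 by 0.89 (SE 0.14, adjusted p = 0.0169). WTD cultures had Tmod4 ratios of -0.03, -0.12 and -0.08, within the range of IM2. Without 1 culture the counts were 14 (D7F culture 2) to 31 against WTD, 7 (D7F culture 2) to 20 against D7E, and 15 (D7F culture 2) to 75 (WTA culture 2) against WTA.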

How the data were processed

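Per the labels, total RNA of 5 mouse lines, 3 cultures each, was hybridised on 2-colour arrays against a common IM2 reference, and the 12 D7F and 12 IM2 arrays are the subject here. The authors deposited 1 log ratio per spot, taken here as log10 because the values stop exactly at -2 and 2. How the arrays were scanned, background-corrected and normalised is not given in these sources. Ratios were read as culture over reference, since Pabpn1 was positive on the part I arrays of every transfected line, while part II has no such marker. The dye of part I arrays of WTA culture 3, which titles and channel sources give differently, was taken from the channel sources. An array of D7F culture 1 is described as high, and its title was followed.

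Rows with identical values were collapsed, leaving 7600 probes on part I and 14326 on part II. Of these, 6731 and 9466 had 1 symbol matched to the RefSeq gene table of GRCm38.p6, 20 and 422 kept the platform's symbol, 730 and 4204 had none, 7 and 112 had several, and 112 and 122 were left out as controls, taken here as probes with human symbols or unnamed ones spotted in over 4 rows. Values at a limit were dropped, the rest multiplied by 3.3219 to give log2 ratios, and both dye orientations of a culture averaged. A probe entered the test if each of the 5 lines had values in 2 or more cultures, which left 4650 and 5058. Each part was fitted with limma (version 3.58.1, R 4.3.3; lmFit and eBayes), with 1 model for the 5 lines and cultures as replicates, and Benjamini-Hochberg adjustment over both parts at a threshold of 0.05. A list's median is over genes, with the probes of a gene averaged. The number of arrays limits the precision.

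Named are Pabpn1, the 12 largest rises and falls against IM2 and the up to 12 against the mean of the other transfected lines among called, fully measured probes with no overlap, and up to 4 called members per list and direction with the smallest p. Ddit4, Calr and other genes said to be chosen afterwards lie outside this rule, as do the 13 genes called against the transfected lines that overlap with them or lack a value. The members and the 41 lists were chosen with earlier results of these data known. Alternatives covered scaling, limits, dyes, filters, array quality, the direction of the IM2 arrays and each culture left out. The fit was tested on simulated data.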

Additional observations from a re-analysis of the deposited data

Results flagged for a closer look

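For 24 genes the D7F line differed from the mean of the other transfected lines by a test of that difference itself (limma, adjusted p under 0.05). On the log2 scale, D7F minus the mean of D7E, WTD and WTA, the lower genes were 3830403N18Rik (-2.38), Fxyd6 (-2.17), Lrrn1 (-1.58), Xlr (-1.24), Cdkn1c (-1.06), Scn10a (-1.05), Nmrk2 (-1.04), Cox8c (-1.0), Pabpn1 (-0.83), Sln (-0.82), Prr32 (-0.79), Rbms1 (-0.69), Vapb (-0.66), Ywhab (-0.53) and Rhoa (-0.49). The higher genes were Hebp2 (0.66), Msln (0.80), Rad51b (0.86), Mss51 (0.96), Tgfbi (1.06), Gpx7 (1.10), Pvalb (1.17), Ces2g (1.47) and Sod3 (1.55). A difference from the mean of 3 lines need not be a difference from each. Of the 24 genes, 11 had all values and no overlap with the other transfected cultures, and 1 (Cox8c) was called against each line singly. Fxyd6 and Cox8c had values in 2 D7F cultures each. Of the 12 settings that left no culture out, their calls ended in 8 for Fxyd6 and 5 for Cox8c. The sign of the Cox8c difference changed with the limit values kept.

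Among the values dropped at the limits, 4 probes of part II lay at the upper limit on 5 of 6 D7F arrays and on at most 1 of 6 IM2 arrays. On the other transfected lines they lay at that limit on at most 1 of 6 arrays. Of the 4, 3 have no gene name here and 1 has several. In the other direction, 9 probes of part II lay at the lower limit on 5 of 6 IM2 arrays and on at most 1 of 6 D7F arrays, and on up to 3 of 6 arrays of another line.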

How the results depend on the processing

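The 438 probes called in D7F against IM2 became 83 with both lines fitted alone, 101 and 236 with the Cy5 or Cy3 arrays alone, 214 with 1 orientation enough, 211 without the poor arrays, 708 with the IM2 arrays turned in sign, 1492 with D7F ratios tested against 0, 835 with single arrays and a dye term, and 217 to 655 with a culture left out. Of the calls, 155 were higher and 283 lower, against 327 and 381 with them turned in sign and 764 and 728 against 0. With the culture number as a replicate block they were 410. Same-numbered D7F and IM2 cultures deviated with r = -0.01603, -0.01788 and -0.1797, none the best match of its D7F culture. In the other lines, the same number was the best match for D7F culture 1 in D7E (r = 0.1706). It was also the best match for D7F culture 3 in WTA (r = 0.2795), and for no other. With 3 cultures a line, these values cannot decide whether the numbers pair the lines. Against the mean of the other transfected lines, 27 became 8 with limits kept, 14 with the replicate block, 2 and 6 with Cy5 or Cy3 alone, 10 with 1 orientation enough, 59 with array weights, 97 with the dye term and 8 to 39 with a culture left out. Against WTD, 44 became 18 with limits kept, 102 centred and scaled, 29 fitted alone, 25 filtered on both lines only, 72 with values in all 15 cultures, 16 and 14 with Cy5 or Cy3 alone, 18 with 1 orientation enough, 186 with array weights, 135 with the dye term and 14 to 31 with a culture left out. Against D7E, 22 became 6 fitted alone, 13 with the replicate block, 14 filtered on both lines only, 42 with values in all 15 cultures, 2 and 3 with Cy5 or Cy3 alone, 78 with array weights, 109 with the dye term and 7 to 20 with a culture left out. Against WTA, 28 became 17 with limits kept, 0 by limma fitted alone (680 at an unadjusted p under 0.05), 43 with values in all 15 cultures, 5 with Cy5 alone, 183 with the dye term and 15 to 75 with a culture left out. The Pabpn1 difference of 1.09 was 0.869 with Cy5 arrays alone, no longer past the threshold.

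Single-gene differences that changed sign were those of Actr1a (-0.53), Snrpb (-0.96) and Srebf2 (0.31) with the IM2 arrays turned in sign, and of Cox8c with limits kept, at 0.37 against IM2 and 0.44 against the transfected lines. In every other single-gene result and alternative run the direction held, though 758 of 3077 values no longer passed. The causes were not tested. Fewer samples or values enter the fits of 1 dye, of both lines alone or with a culture left out.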

Other observations

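Of the genes measured, 156 had probes on both array parts, so their D7F minus IM2 differences were measured on separate hybridisations. Across these genes the differences on part I and part II correlated with r = 0.3256, a description over genes, which are not independent replicates. Of 10 such genes called by limma on at least 1 part, 8 had the same sign on both and 0 were called on both. The share of all 156 genes with the same sign was not computed, so the 8 of 10 have no background beside them.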
